A study of Mus musculus with 12 samples.

Results

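The 9 genes described here mark the early germ line of the testis: Zbtb16, Stra8, Dazl, Sycp1, Sycp2, Sycp3, Hormad1, Spo11 and Dmc1. They were chosen by gene name, and all transcript entries of each were taken, which gave 11 of the 28344 entries and 9 of the 22021 genes in the caput epididymidis transcriptome of mice aged 13 months. The groups were C57BL/6 mice labelled as knockout (KO, Gpx5-/-) and wild-type (WT) C57BL/6 mice. Gpx5 encodes a glutathione peroxidase that the epididymal epithelium secretes. At 13 months, tissue of 7 KO and 7 WT mice was pooled, so each group is 1 library, no value has a replicate error, and no difference has a replicate check. Before RNA extraction the caput was pierced repeatedly and incubated to let spermatozoa out. The labels do not describe the Gpx5 allele. Small RNA libraries, again 1 per group, came from KO and WT caput at 2 months and, at 13 months, from KO and WT testis and all 3 epididymal regions.

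The germ line of the adult mouse testis begins with spermatogonia, which divide by mitosis and then enter meiosis as spermatocytes. Spermatocytes build an axis along each chromosome, cut their DNA, repair the breaks from the homologous chromosome and hold the paired homologues together with the synaptonemal complex. Round and elongating spermatids follow, and spermatozoa leave the testis for the epididymis. Spermatogonia and spermatocytes reside in the seminiferous tubules of the testis and are not known as resident cells of the epididymis. The caput epididymidis is a coiled duct whose epithelium secretes proteins that act on passing spermatozoa.

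The transcriptome libraries rested on 13929327 reads in KO and 14348655 reads in WT. Gpx5 (NM_010343) had 918 RPKM (reads per kilobase of transcript, scaled to library size) in KO caput and 8474 RPKM in WT caput. The KO level was 10.8% of the WT level, so the transcript was lower in the library labelled KO and still abundant there. Of 29 measured genes of the caput secretory epithelium, 0 were at 0 RPKM in either library, and their summed level was 52767 RPKM in KO and 22830 RPKM in WT. Both libraries therefore held the secretory genes of the labelled tissue.

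Of the 9 genes, 8 were lower in KO caput by the limit used here, Zbtb16 was near equal, and 0 were higher. The scale was the difference of log2(RPKM + 1), KO minus WT, which understates the difference of genes with low levels, and the limit for a call was a size of 1, or 2-fold on that scale. Genes with 1 RPKM or more in a library entered the comparison, and all 9 did so through WT, while 3 reached that level in KO. Among the 15000 genes that did so, 22.1% were called lower and 2.77% were called higher. The median difference of the 9 genes was -2.52, against 0.05 over all 15000 genes. In bulk tissue, fewer cells of a type and less RNA per cell cannot be told apart. Centring the values on the caput secretory genes, whose median difference was 1.08, placed Zbtb16 at -1.20 and so called all 9 genes lower. It also called 7713 of the 15000 genes lower and 8 higher, against 3321 and 415 without it.

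The number of reads behind each level was solved from the deposited values, and for the 11 entries it came out whole within 0.1 reads. Together the 9 genes had 273 reads in KO and 8930 reads in WT, which, relative to library size, is 31.8-fold lower in KO, with a 95% interval of 28.1 to 36.0. Intervals cover counting error only, since the reads carry no molecular identifiers and each group is 1 pool. Of the KO reads, 80.6% belonged to Sycp3, Spo11 and Zbtb16, against 8.33% of the WT reads.

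**Figure D1:**
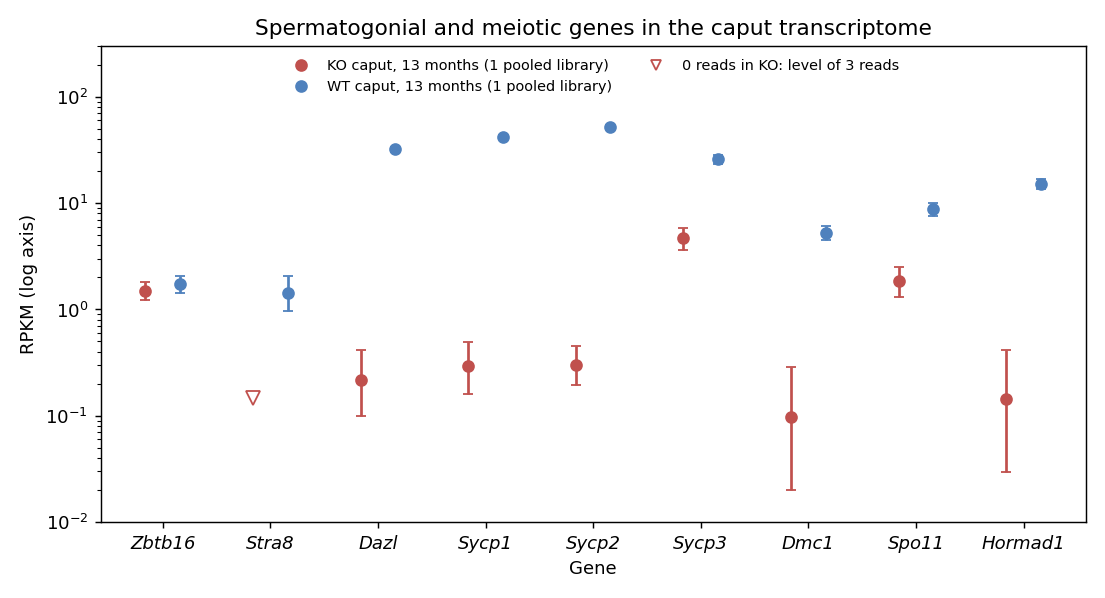
RPKM on a log axis for the 9 genes, with KO caput left of WT caput; bars are exact Poisson 95% intervals of the recovered reads, and the open triangle marks the level of 3 reads for Stra8, which had 0 reads in KO. Zbtb16 is near equal at 1.49 RPKM in KO and 1.72 RPKM in WT, while the other genes lie lower in KO.

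The spermatogonial genes were both at a low level. Zbtb16, a zinc finger transcription factor also known as PLZF, maintains undifferentiated spermatogonia and is expressed in several cell types outside the germ line, innate-like lymphocytes among them. Zbtb16 (NM_001033324) had 1.49 RPKM in KO and 1.72 RPKM in WT, from 106 and 126 reads. Its KO level was 86.7% of the WT level, with an interval of 66.3% to 113% that includes equality, and its difference was -0.13. Of the 9 genes it was the only one whose interval included equality.

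Stra8 is induced by retinoic acid in spermatogonia and preleptotene spermatocytes and is needed for entry into meiosis. Stra8 (NM_009292) had 0 RPKM in KO, where 3 reads would give 0.148 RPKM, and 1.44 RPKM in WT, from 0 and 30 reads. Against this floor of 3 reads in the KO library, its level was 9.71-fold lower in KO. The 95% interval of the ratio begins lower, at 7.42-fold. Its difference on the log2(RPKM + 1) scale was -1.29. With a pseudocount of 5 its difference was -0.36, which is under the limit.

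Dazl encodes an RNA-binding protein of germ cells that controls the translation of germ-line mRNAs. Dazl (NM_010021) had 0.220 RPKM in KO and 31.9 RPKM in WT, from 9 and 1347 reads. It was 145-fold lower in KO, with an interval of 76.3 to 318, and its difference was -4.75. In WT its level was higher than that of 90.2% of all genes, and in KO it was higher than that of 29.3%.

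Of the 9 genes, Sycp2 and Sycp1, both of the synaptonemal complex, had the highest levels in WT. Sycp1 encodes the transverse filament that links the paired homologues, and Sycp1 (NM_011516) had 0.292 RPKM in KO and 41.4 RPKM in WT, from 14 and 2044 reads. Sycp2 encodes a component of the lateral element, and Sycp2 (NM_177191) had 0.303 RPKM in KO and 52.3 RPKM in WT, from 24 and 4269 reads. Sycp1 was 142-fold lower in KO (84.3 to 260) and Sycp2 was 173-fold lower (116 to 270), with differences of -5.04 and -5.35. In WT the 2 genes held 70.7% of the reads of all 9 genes, against 13.9% in KO.

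Hormad1 encodes a HORMA domain protein of the unsynapsed chromosome axis. Hormad1 (NM_026489) had 0.143 RPKM in KO and 15.2 RPKM in WT, from 3 and 330 reads. It was 107-fold lower in KO, with an interval of 36.2 to 520, and its difference was -3.83.

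Sycp3 encodes the partner of SYCP2 in the lateral element, and its KO level stood above those of the other axis genes. Sycp3 (NM_011517) had 4.67 RPKM in KO and 25.8 RPKM in WT, from 73 and 416 reads. It was 5.53-fold lower in KO, with an interval of 4.31 to 7.20, and its difference was -2.24. Its KO level was 18.1% of the WT level (13.9% to 23.2%), while Sycp2 stood at 0.579% (0.371% to 0.863%) and Sycp1 at 0.706% (0.385% to 1.19%), so the intervals of Sycp3 and of either gene do not overlap. In the RefSeq annotation (GRCm38.p6) the span of Sycp3 overlaps that of Chpt1, a gene of phospholipid synthesis, which had 29.4 RPKM in KO and 47.3 RPKM in WT. The counting is not stated to use strand, so whether reads of Chpt1 enter the value of Sycp3 was not tested.

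The recombination genes among the 9, Spo11 and Dmc1, had lower levels in WT than Sycp1, Sycp2, Sycp3 and Hormad1. Spo11 encodes the protein that makes the programmed DNA double-strand breaks of meiosis. Its 3 transcript entries share reads and are not separate measurements. The entry with the highest mean level (NM_001083960) had 1.84 RPKM in KO and 8.79 RPKM in WT, from 41 and 202 reads. The entry NM_001083959 had 1.84 RPKM in KO and 8.58 RPKM in WT, and NM_012046 had 1.72 RPKM in KO and 8.45 RPKM in WT. Spo11 was 4.78-fold lower in KO (3.41 to 6.87) with a difference of -1.79, and its KO level was 20.9% of the WT level (14.6% to 29.4%), an interval that overlaps that of Sycp3. No other gene of the deposited table overlaps its span in that annotation.

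Dmc1 encodes the meiotic recombinase that carries out strand invasion at the breaks. Dmc1 (NM_010059) had 0.0983 RPKM in KO and 5.28 RPKM in WT, from 3 and 166 reads. It was 53.7-fold lower in KO, with an interval of 18.1 to 263, and its difference was -2.52. Its KO level was 1.86% of the WT level (0.380% to 5.54%). Although both act at meiotic breaks, the intervals of Dmc1 and Spo11 do not overlap.

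**Figure D2:**
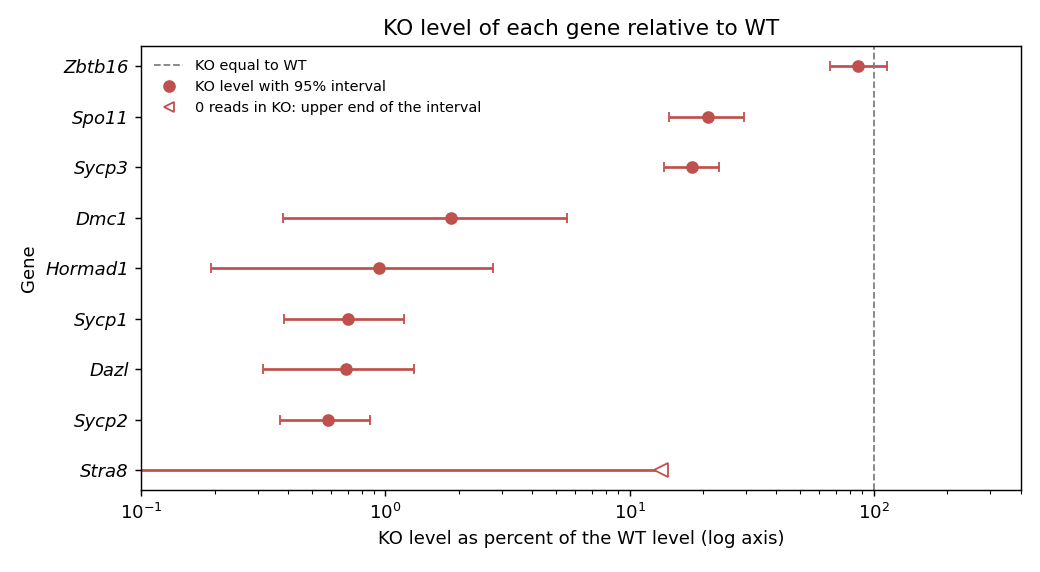
KO level as percent of the WT level on a log axis, with 95% intervals from the recovered reads; the dashed line marks equality, and the open marker is the upper end of the interval for Stra8, at 13.5%. Sycp2, Dazl, Sycp1, Hormad1 and Dmc1 lie between 0.579% and 1.86%, Sycp3 and Spo11 at 18.1% and 20.9%, and Zbtb16 at 86.7%.

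The order of the levels per length differed between the libraries. In KO the order was Sycp3, Spo11, Zbtb16, Sycp2, Sycp1, Dazl, Hormad1, Dmc1 and Stra8. Sycp3 was 2.54-fold above Spo11 (1.71 to 3.82), Spo11 and Zbtb16 did not differ beyond counting error, and Zbtb16 was 4.91-fold above Sycp2 (3.13 to 8.002). From Sycp2 downwards, 0 of the neighbouring pairs differed beyond counting error, at 24 reads or fewer per gene. In WT the order was Sycp2, Sycp1, Dazl, Sycp3, Hormad1, Spo11, Dmc1, Zbtb16 and Stra8, and each neighbouring pair differed beyond counting error except Zbtb16 and Stra8, with a ratio of 1.19 (0.797 to 1.84). Dmc1 was 3.07-fold above Zbtb16 in WT (2.42 to 3.91).

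By the authors' deposited table, 10 of the 11 entries had a GFOLD value, which the file header describes as a reliable log2 fold change, of -1 or less, against 15.1% of all entries. In the authors' deposited table the GFOLD value was -6.69 for Sycp2, -6.20 for Sycp1, -5.79 for Dazl, -4.73 for Hormad1 and -3.73 for Dmc1. It was -1.98 for both Stra8 and Sycp3, between -1.66 and -1.59 for the entries of Spo11, and 0 for Zbtb16. These values and the levels above come from the same reads.

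Other genes of each germ cell stage were described from fixed lists, with the members left out. Of the 24 spermatogonial genes, 16 reached 1 RPKM in a library, and 8 were lower and 1 was higher in KO, with a median difference of -0.98. Their summed level was 217 RPKM in KO and 225 RPKM in WT. Gfra1 and Etv5 made up most of the KO sum, but not most of the WT sum. Of the 24 genes, 10 were at 0 RPKM in KO, against 0 in WT. Gfra1, a receptor for the growth factor GDNF, had 144 RPKM in KO and 66.4 RPKM in WT, a difference of 1.11, and Etv5, a transcription factor, had 54.8 and 31.8 RPKM, a difference of 0.76. Etv5 is also known from the epithelium of the initial segment. Taf7l, a germ cell variant of a general transcription factor subunit, had 0.0742 RPKM in KO and 10.2 RPKM in WT, and Dmrtb1, a regulator of the passage from mitosis to meiosis, had 2.60 and 79.5 RPKM. Named after their values were seen, the spermatogonial regulators Sohlh1 and Sohlh2 had 0 reads in KO and 39 and 40 reads in WT. Their WT levels were 2.11 and 1.19 RPKM. Also named after their values were seen, Kit, Ret and Bcl6b of this list were not lower in KO. Kit had 4.09 RPKM in KO and 4.05 RPKM in WT, Ret had 1.34 and 0.873 RPKM, and Bcl6b had 1.47 and 1.36 RPKM.

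Of 29 further genes of the meiotic axis, the synaptonemal complex and recombination that were found, 26 reached 1 RPKM in a library, and 20 were lower and 0 higher in KO. Their median difference was -2.12, and their median KO level was 4.08% of the WT level. Syce1, a central element protein that binds SYCP1, had 0.540 RPKM in KO and 114 RPKM in WT. Smc1b, the meiotic cohesin subunit, had 0.604 RPKM in KO and 49.8 RPKM in WT. The 6 tested genes called neither, named after their values were seen, were Mlh3, Rec114, Prdm9, Mnd1, Rec8 and Msh5. Their KO levels ran between 34.0% of the WT level for Msh5 and 117% for Mlh3. The summed level of the list was 42.1 RPKM in KO and 440 RPKM in WT.

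The later stages were lower in KO in every measured gene. All 19 late spermatocyte genes were lower, with a median difference of -4.62, and Ldhc, a lactate dehydrogenase subunit of spermatocytes and later germ cells, had 5.15 RPKM in KO and 603 RPKM in WT. Mael, a protein of the piRNA pathway, had 1.67 RPKM in KO and 306 RPKM in WT. All 19 round spermatid genes were lower, with a median of -4.76, and Actl7b, an actin-like protein, had 1.01 RPKM in KO and 137 RPKM in WT. Tssk2, a serine kinase of spermatids, had 1.49996 RPKM in KO and 139.8 RPKM in WT. All 16 elongating spermatid genes were lower, with a median of -5.50, and Tnp1, a transition protein that replaces histones, had 24.1 RPKM in KO and 2329 RPKM in WT. Prm2, a protamine, had 51.7 RPKM in KO and 2745 RPKM in WT, and Fabp9, a fatty acid-binding protein, had 6.14 and 743 RPKM. The median KO level was 2.07% of the WT level in late spermatocyte genes, 0.978% in round spermatid genes and 1.98% in elongating spermatid genes. Among the 9 genes, Sycp1, Sycp2, Dazl, Hormad1 and Dmc1 lay between 0.579% and 1.86%. Sycp3 lay higher at 18.1%, Spo11 at 20.9% and Zbtb16 at 86.7%, and Stra8 had 0 reads in KO. In WT the median level per gene was 1.48 RPKM for the spermatogonial list, 4.72 for the meiotic list, 38.3 for late spermatocytes, 41.2 for round spermatids and 274 RPKM for elongating spermatids. The 9 genes had a median of 15.2 RPKM in WT.

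**Figure D3:**
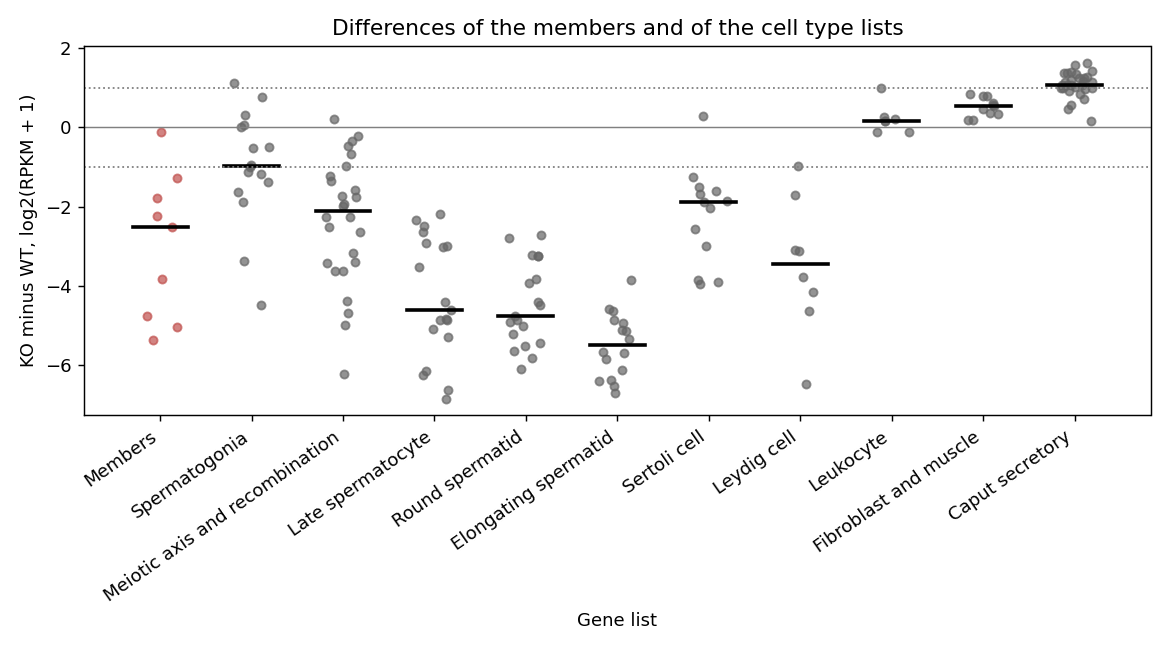
Difference of log2(RPKM + 1), KO minus WT, for each gene at 1 RPKM or more in a library, by list; black lines are medians and dotted lines the 2-fold limit. The members have a median of -2.52, the lists of late spermatocytes and spermatids lie below -2, and the caput secretory genes have a median of 1.08.

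Markers of testicular somatic cells were lower in the same library as the germ cell genes. Of 13 tested Sertoli cell genes 12 were lower in KO and 0 higher, with a median difference of -1.89. Their summed level was 14.1 RPKM in KO and 152 RPKM in WT over the 15 genes found, of which 4 were at 0 in KO and 0 in WT. Cst9 had 2.93 RPKM in KO and 57.3 RPKM in WT, and Aard had 1.01 and 30.04 RPKM. Of 8 Leydig cell genes 7 were lower and 0 higher, with a median of -3.44, and Insl3, the Leydig cell hormone, had 1.47 RPKM in KO and 219 RPKM in WT. Of the enzymes of steroid synthesis, Hsd3b6 had 0.1195 RPKM in KO and 26.8 RPKM in WT, and Cyp17a1 had 7.18 and 69.996 RPKM, at 10.3% of the WT level. Their summed level was 11.9 RPKM in KO and 371 RPKM in WT, with 0 of the 8 genes at 0 in either library. The part of such cells in the values of the 9 genes was not tested. Dmrt1 stands in both the spermatogonial and the Sertoli cell list.

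Without centring, genes of other cell types of the caput were not called lower. Of all 15000 genes tested, 3321 were called lower, 415 higher and 11264 neither, so staying within the limit was the usual outcome. Of 29 caput secretory genes 19 were higher and 0 lower in KO, with a median difference of 1.08, and Defb18, a beta-defensin, had 1961 RPKM in KO and 634 RPKM in WT. Lcn5, a lipocalin, had 2294 RPKM in KO and 770.3 RPKM in WT, and the defensin-like Spag11b and Defb20 had 7241 and 6589 RPKM in KO, against 3007 and 2506 RPKM in WT. All 7 tested leukocyte genes stayed within the 2-fold limit, with a median of 0.16, and Lyz2, the lysozyme of macrophages, had 47.8 RPKM in KO and 41.6 RPKM in WT. Cd68, a macrophage gene, lay just inside the limit at 0.98, with 10.8 RPKM in KO and 4.98 RPKM in WT. The T cell gene Cd3g had 1.89 RPKM in KO and 1.43 RPKM in WT, and H2-Aa, of MHC class II, had 52.7 and 57.2 RPKM. The summed leukocyte level was 127 RPKM in KO and 119.999 RPKM in WT over 15 genes, with 1 at 0 in KO and 0 in WT. All 11 fibroblast and smooth muscle genes stayed within the limit as well, with a median of 0.53, and Dcn, a proteoglycan of connective tissue, had 80.1 RPKM in KO and 46.1 RPKM in WT. Pdgfra, a receptor of fibroblasts, had 37.3 RPKM in KO and 20.4 RPKM in WT, and the smooth muscle genes Cnn1 and Acta2 had 10.8 and 152 RPKM in KO, against 5.79 and 102.7 RPKM in WT. Centred on the secretory genes, a shift of 1.08, the median of the leukocyte list turned to -0.92 with 2 genes lower, that of the fibroblast and smooth muscle list turned to -0.55, and 0 secretory genes were higher. Zbtb16, at -0.13, lay beside the lower end of the leukocyte genes, whose differences ran between -0.12 and 0.98.

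Small RNA libraries gave a further readout of the same mRNAs. Reads matched to a RefSeq entry of a member were counted, and fragments that the authors matched to other GenBank entries of these genes were not counted here. The counted fragments were few, and 219 of their 235 listed sequences had 1 read. The following are examples of sequences that were found in more than 1 library, from 1 or 2 reads in each; the capital marks the first base, and each is written as DNA, 5′ to 3′.
Hormad1, WT caput and WT testis: Tgagataaatccaagggaacttttgact
Sycp1, WT caput and WT testis: Taccttggaggaattactgagaacagaact
Sycp2, KO testis and WT testis: Accatgataaaacaaggattagtccaaaag
The Hormad1 sequence had 1 read in each of the 2 WT libraries, the Sycp1 sequence had 2 in each, and the Sycp2 sequence had 2 in each testis library. Of 9 plus-strand sequences shared between libraries, 0 were listed in KO caput at 13 months and 4 in WT caput. KO caput held 5 plus-strand reads of the 9 genes in all, against 32 in WT caput, so fewer shared sequences could appear there.

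In caput at 13 months, fragments of the 8 genes without Zbtb16 numbered 3 in KO and 31 in WT. That is 0.163 and 2.24 RPM (reads scaled to the classified reads of the library), or 13.7-fold lower in KO with an interval of 4.28 to 70.2. Zbtb16 had 5 fragments in KO caput and 3 in WT caput. In KO caput the 3 fragments were 1 of Sycp1 and 2 of Dmc1, and in WT caput Sycp1 had 14, Sycp2 5, Dazl 4, Sycp3 4, Dmc1 2 and Hormad1 2. Stra8 and Spo11 had 0 in both, where 3 counts would be 0.163 RPM in KO and 0.217 RPM in WT. Sycp1, with the most fragments in WT caput, came next after Sycp2 in RPKM in the WT transcriptome.

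In testis, fragments of the 8 genes numbered 96 in KO and 77 in WT, or 9.76 and 8.99 RPM. Their ratio of KO to WT was 1.09, with an interval of 0.796 to 1.49 that includes equality. Sycp1 had 29 in KO testis and 25 in WT testis, Sycp2 25 and 17, Dazl 18 and 16, and Hormad1 8 and 10. The caput level was 1.67% of the testis level in KO (0.339% to 5.04%) and 24.9% in WT (15.9% to 38.3%). Of the plus-strand reads of the 8 genes, 89 of 94 in KO testis, 68 of 75 in WT testis and 27 of 29 in WT caput were 24 to 32 nt long. Of these plus-strand reads, 45 of 94 in KO testis, 54 of 75 in WT testis and 19 of 29 in WT caput began with T.

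The remaining libraries held few fragments of the 8 genes. Corpus had 2 in KO and 9 in WT, or 0.239 and 0.310 RPM, and cauda had 3 in KO and 3 in WT, or 0.262 and 0.183 RPM. Of the corpus reads on the plus strand, 0 of 2 in KO and 0 of 7 in WT were 24 to 32 nt long. Caput at 2 months had 0 fragments in KO and 0 in WT, where 3 counts would be 0.391 and 0.778 RPM. The 2.24 RPM of WT caput at 13 months lies above both floors.

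**Figure D4:**
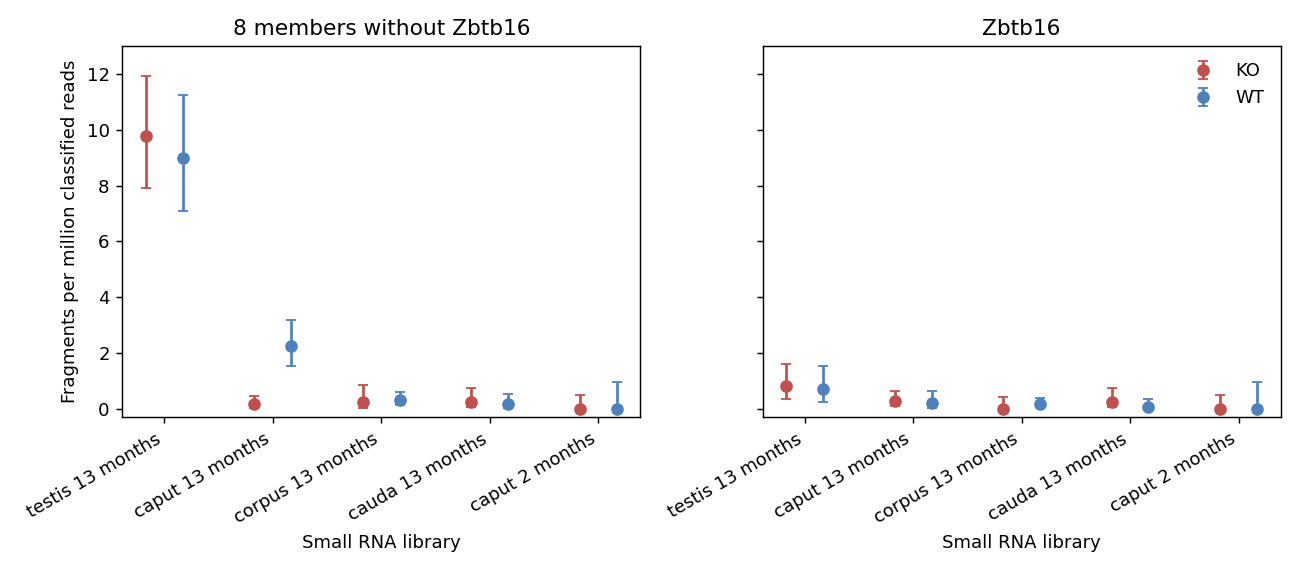
Fragments of member mRNAs in RPM in each pair of small RNA libraries, KO left of WT, with exact Poisson 95% intervals; the left panel holds the 8 members without Zbtb16 and the right panel Zbtb16. Both testis libraries stand highest at 9.76 in KO and 8.99 in WT, and caput at 13 months has 0.163 in KO and 2.24 in WT.

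The promoters of the members that were lower in KO were examined for motifs of known germ-line regulators. In somatic cells a MAX- and E2F6-containing repressor complex is known to keep germ-line genes silent, and MAX binds the E-box CACGTG. RefSeq promoters (GRCm38.p6, a build other than the mm9 named for the reads) were found for 7 of the 9 genes, and Zbtb16 and Spo11 were not matched. In the 250 bases before the start, CACGTG was present in 3 of the 7, Sycp1, Sycp3 and Hormad1, and in 6.02% of all 32851 promoters. The E2F-like motif GGCGGGA, read on both strands, was present in 1 of the 7, Hormad1, and in 9.75% of all promoters. The counts of members are per gene, with any promoter of a gene enough for a match. The shares over all are per promoter, so the units differ. The 120 bases before the start of the 3 genes with an E-box are shown because they differ in KO level while sharing the motif; each is on the strand of its gene and capitals mark CACGTG.
Sycp1, chr3:102936101-102936220, minus strand: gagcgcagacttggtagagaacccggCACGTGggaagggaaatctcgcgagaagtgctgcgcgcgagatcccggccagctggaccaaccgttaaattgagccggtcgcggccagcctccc
Sycp3, chr10:88459467-88459586, plus strand: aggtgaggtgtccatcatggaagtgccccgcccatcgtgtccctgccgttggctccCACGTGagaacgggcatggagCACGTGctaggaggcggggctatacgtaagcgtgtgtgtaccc
Hormad1, chr3:95559557-95559676, plus strand: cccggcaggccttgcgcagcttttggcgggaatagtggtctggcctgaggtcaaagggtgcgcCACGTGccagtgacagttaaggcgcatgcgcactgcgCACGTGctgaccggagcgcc
The E-box began 94 bases before the start in Sycp1, 64 and 43 bases before it in Sycp3, and 57 and 20 bases before it in Hormad1. Sycp1 and Hormad1 stood at 0.706% and 0.936% of the WT level in KO, and Sycp3 at 18.1%. A match is a description of these letters and not of binding.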

How the data were processed

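With 1 pooled library in each group, no test between KO and WT and no p-value was computed. The authors deposited RPKM values per RefSeq transcript, made with GFOLD 1.1.3 per the file headers, which also name the WT and KO columns. The authors also deposited a log2 fold change and a GFOLD value on the log2 scale and an E-FDR of the kind of a p-value that is 1 in all 28344 entries. Per the submitters' processing notes, which give no role, TopHat2, Bowtie 0.12.7 and mm9 were used. Small RNA was selected at 18 to 40 nt, per the labels. The small RNA files hold a deposited count of reads per sequence, each matched to a database entry with up to 2 mismatches per the file headers.

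The transcript with the highest mean RPKM stood for a gene, and 41 gene names stored as dates were restored by accession. Accessions of 26880 entries matched the RefSeq table. Whole reads were solved from both RPKM values with the deposited fold change, which was tested on simulated data. Levels have exact Poisson intervals, and ratios have exact conditional binomial intervals, at 95%, computed with scipy 1.17.1 and pandas 2.3.3. A count of 0 was given a floor of 3 counts per library. In the 2-month files the count of 5419 sequences in KO and 5531 in WT, lost to dates, was read back from the month.

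Classified small RNA reads numbered 18362642 in KO and 13825045 in WT caput at 13 months, and 3855476 to 29049669 in the other 8 libraries. The members and lists were chosen with earlier results of these data known. Named genes were all members, Gpx5, the 2 genes of each list with the largest difference and the 2 with the highest mean, and the 2 genes nearest to each member at 5 RPKM or more. Genes marked as named after their values were seen fall outside this rule. Alternatives covered pseudocounts of 0.1 and 5, filters, summed transcripts, centring, mismatches, length and strand of fragments.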

Additional observations from a re-analysis of the deposited data

Results flagged for a closer look

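At 13 months, the log2 ratio of KO to WT of fragments of the 9 member mRNAs was above 0 in testis and in cauda. It was below 0 in caput and in corpus. In caput the log2 ratio of KO to WT in RPM, reads scaled to the classified reads of the library, was -2.50, from 8 fragments in KO and 34 in WT. In testis it was 0.13, from 104 in KO and 83 in WT, with a ratio interval of 0.810 to 1.47. In cauda it was 1.11, from 6 in KO and 4 in WT, with a ratio interval of 0.510 to 10.4. In corpus it was -1.01, from 2 in KO and 14 in WT, with a ratio interval of 0.0548 to 2.16. With 1 library per group, these differences between tissues were not tested, and the intervals in testis, cauda and corpus include equality.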

How the results depend on the processing

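No paired analysis was possible because each group is 1 pooled library. Of 45 member values under other settings, 43 kept their direction and their side of the 2-fold limit. The exceptions were Stra8 with a pseudocount of 5 (-0.36) and Zbtb16 centred on the caput secretory genes (-1.20). That centring shifts every gene by 1.08. Summing transcripts could change the value of Spo11 alone, since every other member has 1 entry. Over all genes, a pseudocount of 5 gave 2073 lower and 190 higher, and a pseudocount of 0.1 gave 3765 lower and 698 higher, against 3321 and 415. With 5 RPKM or more required, 7 members entered and 7 were lower, against 24.1% of the 10537 genes tested. All 7 entered through WT, since the highest KO level of a member was 4.67 RPKM, that of Sycp3.

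Among the lists, the spermatogonial median was -1.29 with a pseudocount of 0.1, -1.07 with 5 RPKM required and -1.03 centred on all genes, and its lower genes numbered 2 of 16 with a pseudocount of 5 and 3 of 6 with 5 RPKM required. With a pseudocount of 5 the meiotic list had 12 of 26 genes lower, with a median of -0.81, and the Sertoli cell list 6 of 13, with a median of -0.73. With 5 RPKM required, 12 of 14 and 6 of 6 were lower, with medians of -3.41 and -3.43, and with a pseudocount of 0.1 the medians were -3.87 and -4.24. With a pseudocount of 0.1, 1 leukocyte gene was higher. Centring the lists on the secretory genes, chosen after seeing the data, gave 13 spermatogonial genes lower and 0 higher with a median of -2.06, 2 leukocyte genes lower, and by construction a secretory median of 0 with 0 genes higher. It turned the sign of 2 list medians that were inside the 2-fold limit, to -0.92 for leukocytes and -0.55 for fibroblasts and smooth muscle.

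Fragments of all 9 members, Zbtb16 included, were 0.436 RPM in KO and 2.46 RPM in WT caput at 13 months. Without a mismatch they were 0.163 in KO and 1.59 in WT caput, 7.93 in KO and 7.70 in WT testis, 0 in KO and 0.0688 in WT corpus, and 0 in WT cauda. At 24 to 32 nt they were 0.109 in KO caput, 0 in KO and 0 in WT corpus, and 0.175 in KO and 0 in WT cauda, and the caput log2 ratio was -4.22. Counts of a few reads limit these values. Of the member differences, list medians and log2 ratios that were past the limit, 0 changed sign under other settings. The rest of the 245 values under other settings were counts of genes and RPM levels, which cannot change sign.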

Other observations

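The genes nearest to each member in the plane of log2(RPKM + 1) in KO and WT were named by rule, over these 2 libraries alone. Nearest to Sycp1 were Spaca4, at 0.303 RPKM in KO and 41.2 RPKM in WT, and Slc22a16, at 0.288 and 42.3 RPKM. Nearest to Sycp2 were Gm6455, at 0.335 RPKM in KO and 52.3 RPKM in WT, and 1700029M20Rik, at 0.355 and 53.7 RPKM. Nearest to Sycp3 were Cd72, at 4.73 RPKM in KO and 26.0 RPKM in WT, and Lrrc28, at 4.69 and 24.7 RPKM. Nearest to Spo11 were Uhrf1, at 1.88 RPKM in KO and 8.77 RPKM in WT, and Zswim3, at 1.82 and 8.94 RPKM. Dmc1 lay next to 4921517D22Rik and Gm15097, Hormad1 next to Gm5334 and Gm2799, and Dazl next to Gm10096 and Gm10487. Gm10096 and Gm10487 equalled each other, each at 0.237 RPKM in KO and 31.2 RPKM in WT. The distances ran between 0.01 and 0.07 on the log2 scale.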
